A study of Saccharomyces cerevisiae with 18 samples.

Results

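The large-subunit cytosolic ribosomal proteins are the protein part of the yeast 60S ribosomal subunit. Their genes were taken as all entries of the expression table whose systematic name has a standard symbol made of RPL, a number between 1 and 43 and an optional A or B, together with the stalk genes RPP0, RPP1A, RPP1B, RPP2A and RPP2B. These are 81 of the 5861 entries. Of these, 78 had a value on every array, among 5739 such genes in all. The entries RPL4B, RPL35B and RPL41B were listed without values and are not described further. The 81 genes make up 33 duplicated pairs, 10 genes present once and 5 stalk genes, and both copies were measured for 30 of the pairs.

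Gene expression was measured in Saccharomyces cerevisiae on one-colour NimbleGen arrays, with 18 arrays in 6 groups of 3. EPY330 and EPY338, engineered strains whose alleles the labels do not give, were each grown from 3 colonies and induced for 24 h in YPG medium under the same conditions, and the RNA of the 3 cultures was pooled. The same 2 pools were labeled by 3 methods. In the direct random method Cy3-tagged random primers start a single reverse transcription of total RNA. In the indirect method aminoallyl nucleotides enter oligo(dT)-primed cDNA and are coupled to an Alexa Fluor dye after reverse transcription. In the ds-cDNA method oligo(dT)-primed double-stranded cDNA is copied with Cy3-tagged random primers. The 3 arrays of a group are therefore repeated labelings of 1 pool, so that p-values measure technical spread and leave out differences between cultures. Values are log2 intensities, normalized so that the arrays share nearly 1 distribution, and a level is thus relative to the other genes of the same array.

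The 60S subunit holds the peptidyl transferase centre, where amino acids are joined, and the tunnel through which the new chain leaves. Its proteins are made in amounts matched to each other, and in growing yeast their messages are among the most abundant. Most of these genes exist as A and B copies that arose by a genome duplication and encode almost the same protein. Their transcription is driven by Rap1, Fhl1, Ifh1 and Sfp1 and is adjusted through the TOR pathway. The stalk is built on RPP0, which carries the acidic proteins P1 and P2 and recruits elongation factors.

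The largest feature of these genes was a difference between labeling methods that was shared by both strains. By direct random labeling the median of the 78 genes lay between 13.52 and 13.61 on the 6 arrays, by indirect labeling between 13.72 and 13.78, and by ds-cDNA labeling between 11.41 and 11.77. The median of all genes was between 9.99 and 10.12 on every array. On each direct random array 76 of the 78 genes belonged to the brightest 25% of all genes, on the indirect arrays 76 to 78, and on the ds-cDNA arrays 41 to 52. Between 1 and 2 of the genes on a direct random or indirect array came within 1 log2 unit of the brightest gene of that array, and none did on a ds-cDNA array, so that few of the values were close to the upper end of the scale.

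Direct random labeling against ds-cDNA labeling was tested with limma on all 18 arrays, as the mean of both strains, with Benjamini-Hochberg adjustment over all 5739 genes. At an adjusted p under 0.05, 77 of the 78 genes were higher with the direct random method and 1 was lower, while among all genes 37.4% were higher and 49.7% were lower. The median difference of the 78 genes was 2.02 log2 units, or 4.07-fold, against -0.12 log2 units for all genes. Differences above 1 log2 unit were seen in 69 genes, above 2 in 41 and above 3 in 8, and 63 of the 78 lay in the top 10% of all genes. The same comparison in the EPY330 arrays alone gave a median of 2.01, and in the EPY338 arrays alone 2.02. In each strain the mean of 77 genes was higher with the direct random method.

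Indirect labeling against ds-cDNA labeling gave a similar picture, and it shares the ds-cDNA arrays with the comparison above. Here 77 genes were higher with the indirect method and 1 was lower, against 40.4% and 48.6% of all genes. The median difference was 2.23 log2 units, or 4.68-fold, with 72 genes above 1, 46 above 2 and 12 above 3. Centring each array on its median raised the medians of the 78 genes to 2.13 for direct random and 2.33 for indirect, both against ds-cDNA. The method comprises the primers, the dye, the amount of cDNA hybridized and the scanner gain set for each array, and these cannot be told apart here.

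**Figure D1:**
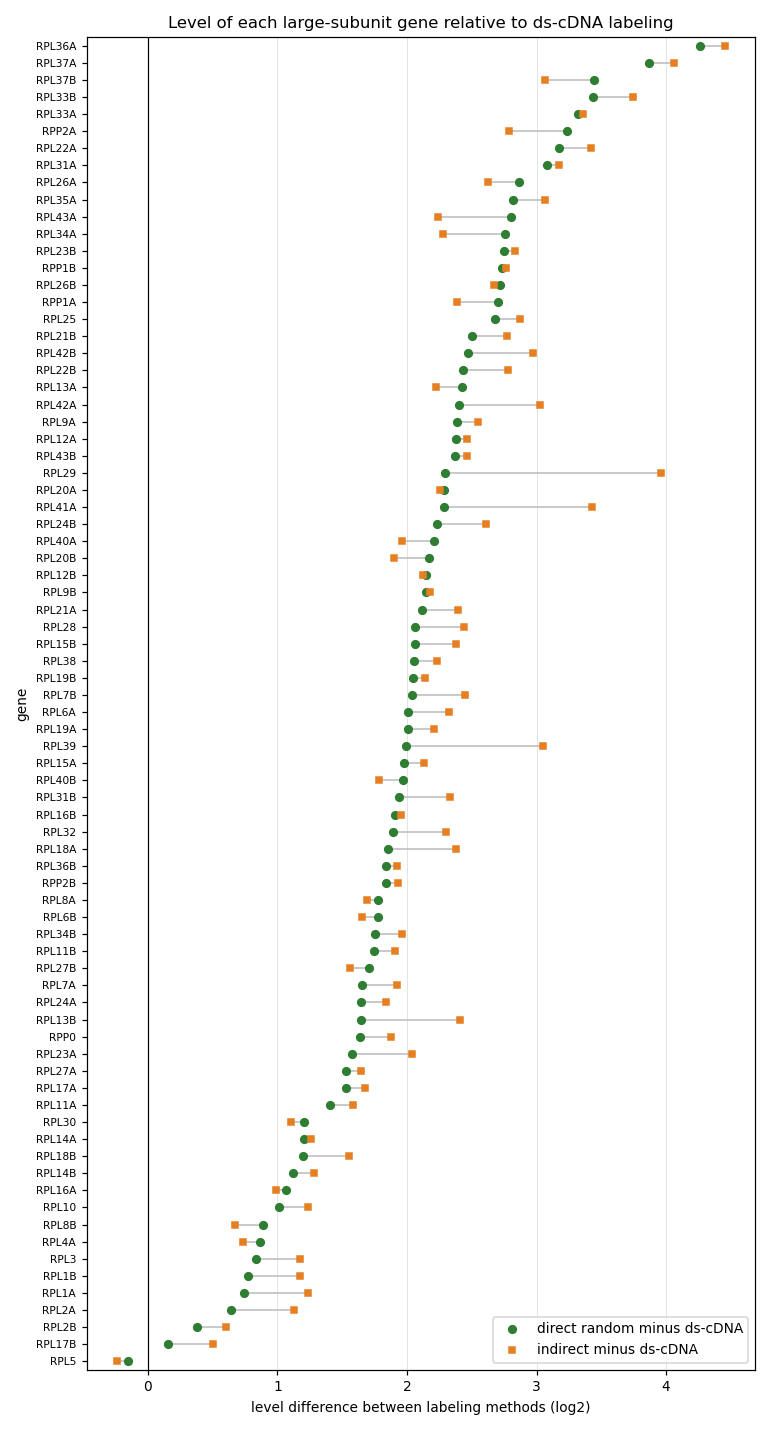
Level difference of each of the 78 genes on the log2 scale, as direct random minus ds-cDNA (circles) and indirect minus ds-cDNA (squares), with the mean of both strains and genes ordered by the direct random difference. RPL36A lies at the top with 4.26 and 4.45, and RPL5 is the only gene below 0, at -0.15 and -0.24.

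RPL36A had the largest difference from ds-cDNA labeling. This gene, 1 of a pair for the protein eL36, showed 12.78, 12.74 and 12.88 with the direct random method in EPY330 and 12.77, 12.80 and 12.88 in EPY338. With the indirect method it had 13.03, 13.02 and 13.09 in EPY330 and 12.99, 12.92 and 12.95 in EPY338. With the ds-cDNA method it had 8.57, 8.74 and 8.41 in EPY330 and 8.56, 8.54 and 8.45 in EPY338. The ds-cDNA arrays were thus far below all others and the strains overlapped. Its level was 19.2-fold higher by direct random than by ds-cDNA labeling (95% interval 17.9 to 20.7), and 21.9-fold higher with the indirect method than with the ds-cDNA method (20.4 to 23.6).

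RPL37A, which encodes a zinc-binding protein near the tunnel exit, had the next largest difference, 14.6-fold for direct random against ds-cDNA and 16.7-fold for indirect against ds-cDNA. Next came RPL37B, the copy of RPL37A, for direct random against ds-cDNA, at 3.45 log2 units, with 3.07 for indirect against ds-cDNA. For indirect against ds-cDNA the gene after RPL37A was RPL29, at 3.96 log2 units, which had 2.29 for direct random against ds-cDNA. RPL33A and RPL33B had 3.32 and 3.43 log2 units for direct random against ds-cDNA, RPP2A of the stalk had 3.23, RPL22A had 3.18 and RPL31A had 3.08. All of these were called.

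At the other end RPL5, whose protein carries the 5S rRNA into the subunit, had 13.93, 13.92 and 13.81 with the direct random method in EPY330 and 13.85, 13.84 and 13.71 in EPY338. With the indirect method it had 13.83, 13.70 and 13.73 in EPY330 and 13.74, 13.73 and 13.84 in EPY338. With the ds-cDNA method it had 14.08, 14.24 and 13.77 in EPY330 and 13.97, 13.96 and 13.97 in EPY338. Of the 6 ds-cDNA arrays 5 lay above every array of the other methods, and 1 did not. The difference was -0.15 log2 units for direct random against ds-cDNA (adjusted p = 0.032) and -0.24 for indirect against ds-cDNA (adjusted p = 0.002). After median centring neither was called, with -0.05 (adjusted p = 0.45) and -0.13 (adjusted p = 0.054). Without replicate 2 of EPY330 on ds-cDNA arrays, the direct random difference of RPL5 was -0.10 and was not called (adjusted p = 0.11).

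RPL17B, 1 of the copies for a protein lining the exit tunnel, was 0.15 log2 units higher by direct random than by ds-cDNA labeling and 0.50 higher with the indirect than with the ds-cDNA method. Under quantile normalization of all 18 arrays together the direct random difference of RPL17B became -0.07 (adjusted p = 0.35). RPL2B and RPL2A, for a protein next to the peptidyl transferase centre, were 0.38 and 0.64 log2 units higher with direct random than with ds-cDNA labeling. RPL1A, RPL1B, RPL3, RPL4A and RPL8B had differences of 0.75, 0.77, 0.84, 0.87 and 0.89. Together with RPL5 and RPL17B these are the 9 genes under 1 log2 unit in that comparison.

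The numbers in RPL names follow, roughly, the order of the proteins by size on gels, with low numbers for large proteins. The level difference followed this number. For direct random against ds-cDNA the median was 0.95 log2 units in the 16 genes RPL1 to RPL10, 1.88 in the 20 genes RPL11 to RPL20, 2.26 in the 16 genes RPL21 to RPL30 and 2.40 in the 21 genes RPL31 to RPL43. For indirect against ds-cDNA the medians were 1.23, 2.04, 2.62 and 2.98. The 5 stalk genes had a median of 2.70 for direct random and 2.39 for indirect labeling, each against ds-cDNA. Over the 73 RPL genes, Spearman's rho between number and difference was 0.60 for direct random and 0.58 for indirect, both against ds-cDNA, and 0.03 for direct random against indirect. These coefficients are across genes, which share the arrays and in part the sequences of their copies, and are given as a description. Gene length and the positions of the probes were not used here.

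**Figure D2:**
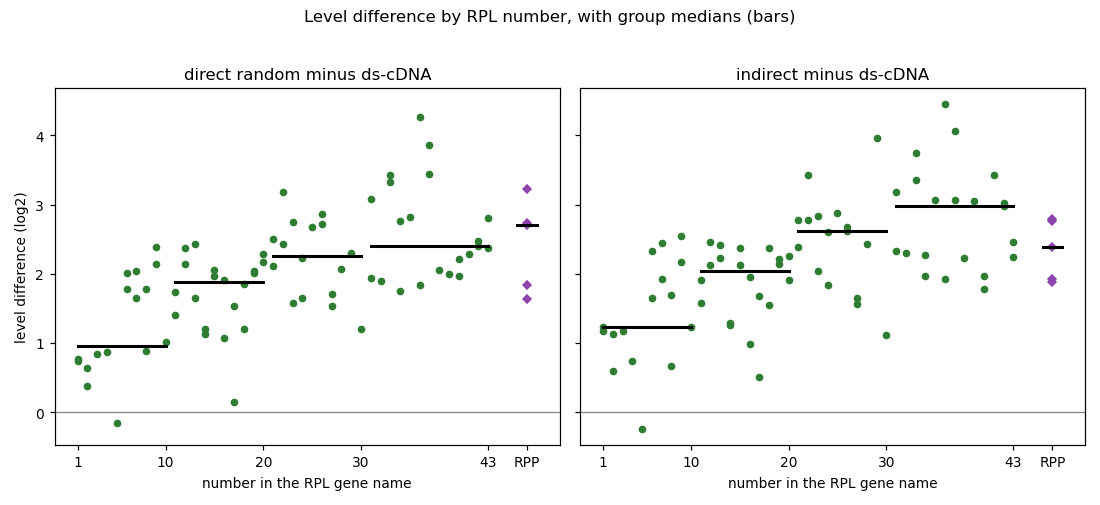
Level difference against ds-cDNA on the log2 scale for each RPL gene by the number in its name, and for the 5 RPP stalk genes, with direct random on the left and indirect on the right. Bars are group medians, which run 0.95, 1.88, 2.26 and 2.40 on the left and 1.23, 2.04, 2.62 and 2.98 on the right for the 4 number groups.

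Direct random and indirect labeling differed far less from each other. Of the 78 genes 12 were higher and 43 lower with the direct random method (15.4% and 55.1%), against 30.5% and 34% of all genes, and the median was -0.17 log2 units, against -0.02 for all genes. Just 3 of the 78 genes were called with a difference above 1 log2 unit. Among all 5739 genes 89 were higher and 74 lower by that measure. The 3 genes were lower with the direct random method and encode very short proteins.

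RPL29, a protein that yeast can live without, had 12.33, 12.30 and 12.32 with the direct random method in EPY330 and 12.51, 12.45 and 12.52 in EPY338. With the indirect method it had 14.08, 14.14 and 13.96 in EPY330 and 14.02, 14.03 and 14.19 in EPY338. The arrays of the 2 methods did not overlap, and the level with the direct random method was 0.315-fold that with the indirect method (95% interval 0.283 to 0.351). RPL41A, which encodes the shortest protein of the ribosome, reached 15.38, 15.33 and 15.22 with the indirect method in EPY330 and 15.35, 15.38 and 15.11 in EPY338, within 1 log2 unit of the brightest gene of these arrays. Its difference was -1.14 log2 units (adjusted p = 8.3e-08). RPL39, a tunnel protein, had -1.06 log2 units (adjusted p = 3.2e-10). In the other direction RPL43A was 0.57 log2 units higher with the direct random than with the indirect method, RPL34A 0.48 and RPP2A 0.44.

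The comparison of EPY330 with EPY338 was made within the 6 arrays of each method. It gave small differences throughout. The fold-changes of EPY330 over EPY338 lay between 0.861 and 1.27 for direct random, between 0.87 and 1.26 for indirect and between 0.656 and 1.17 for ds-cDNA labeling. The median log2 difference was 0.02 with direct random, 0.02 with indirect and -0.05 with ds-cDNA labeling, against -0.01, -0.02 and 0.00 for all genes. For 61 genes with direct random, 62 with indirect and 11 with ds-cDNA labeling the whole 95% confidence interval fell within a 1.2-fold change, for 78, 78 and 71 genes within a 1.5-fold change, and for all 78 genes with every method it fell within a 2-fold change.

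The half-width of these intervals had a median of 0.12 log2 units with direct random, 0.16 with indirect and 0.26 with ds-cDNA labeling. The replicate SD had a median of 0.063 log2 units over the 78 genes with direct random labeling (0.073 over all genes), 0.070 with indirect labeling (0.10 over all genes) and 0.15 with ds-cDNA labeling (0.11 over all genes). With the ds-cDNA method 60 of the 78 genes had an SD above the median of all genes, against 29 with direct random and 12 with indirect labeling. The ds-cDNA array of EPY330 replicate 3 had the lowest median of these genes, 11.41, and that of EPY338 replicate 3 the highest, 11.77. The median ds-cDNA strain difference lay between -0.10 and 0.03 log2 units when 1 array was left out, with the lowest value without EPY338 replicate 1 and the highest without EPY338 replicate 3, so that its sign rested on single arrays.

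**Figure D3:**
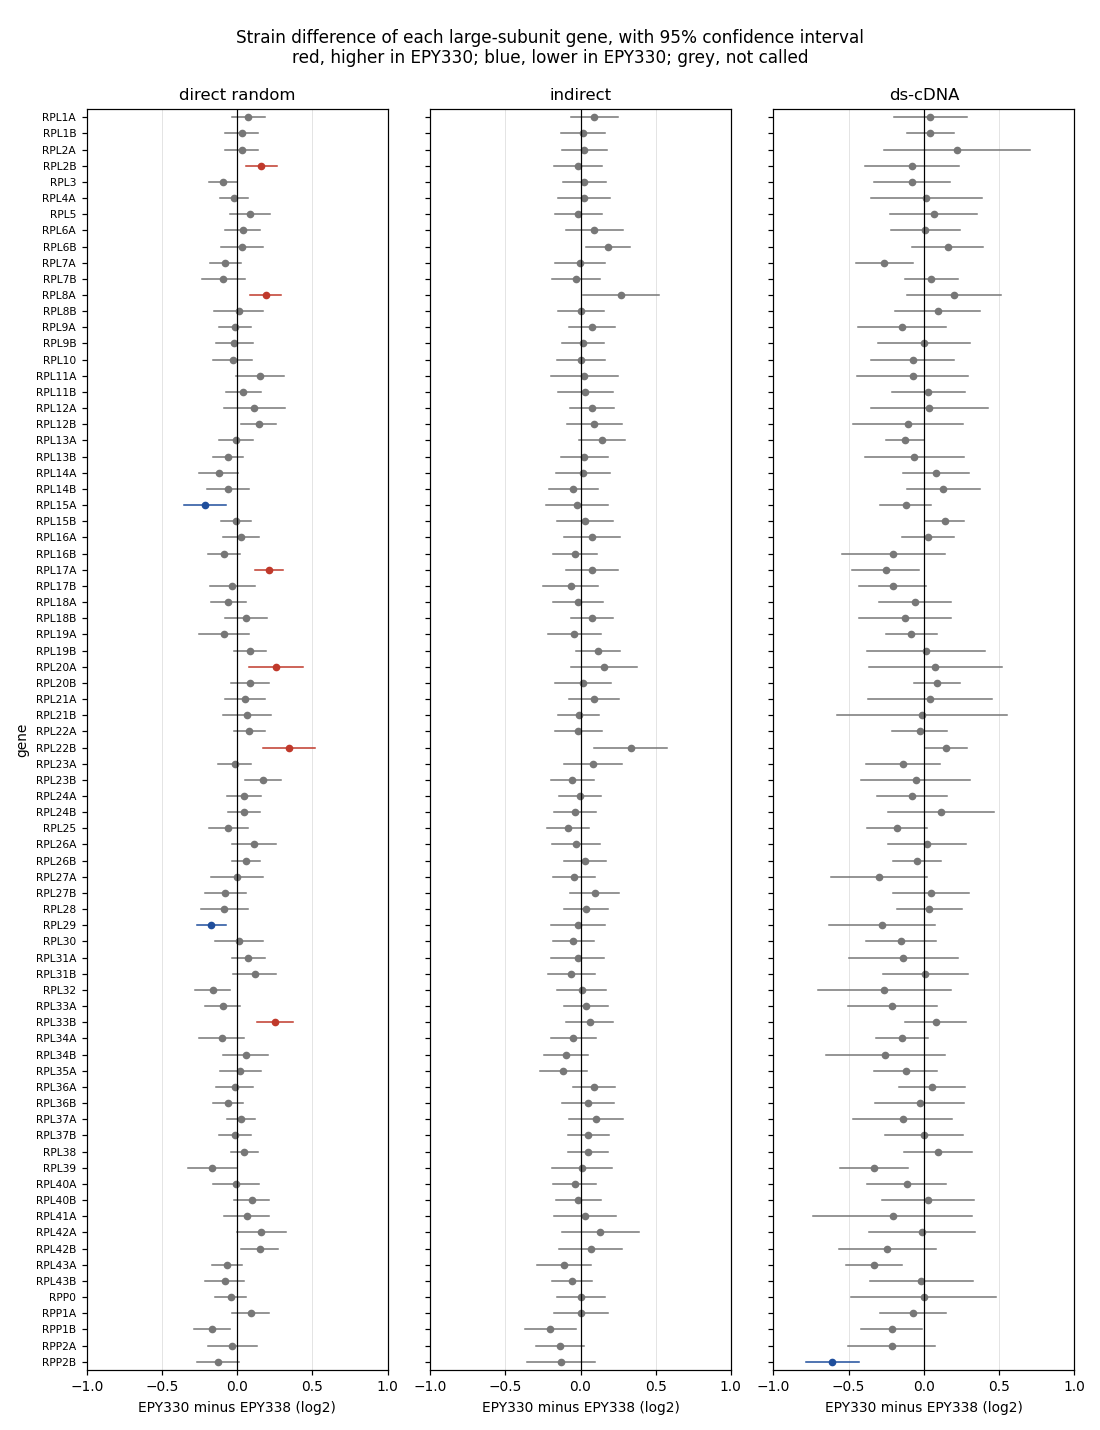
Strain difference, EPY330 minus EPY338 on the log2 scale, of each of the 78 genes with each labeling method, with 95% confidence intervals from the 6 arrays of the method. The 6 genes called higher and 2 called lower with direct random labeling lie within 0.35 log2 units of 0, no gene was called with indirect labeling, and RPP2B stands alone at -0.61 with ds-cDNA labeling.

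With the direct random method 6 of the 78 genes were higher in EPY330 (7.69%) and 2 were lower (2.56%), while 11% of all genes were higher and 11.4% were lower, so the share of called genes was below that of the whole array. None passed at an adjusted p under 0.01. RPL22B, a copy whose splicing is held down by the Rpl22 protein itself, had the largest difference. It had 11.06, 10.95 and 11.17 in EPY330, against 10.64, 10.83 and 10.68 in EPY338, without overlap, and was 1.27-fold higher in EPY330 (95% interval 1.13 to 1.43, adjusted p = 0.016). RPL33B had 12.64, 12.77 and 12.69 in EPY330, against 12.40, 12.44 and 12.50 in EPY338, and RPL17A had 13.77, 13.75 and 13.77 in EPY330, against 13.57, 13.51 and 13.58 in EPY338. Neither overlapped between strains, and they were 1.19-fold and 1.16-fold higher in EPY330 (adjusted p = 0.013 and 0.010).

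The other 3 higher genes were RPL20A at 0.26 log2 units, RPL8A at 0.19 and RPL2B at 0.16 (adjusted p = 0.049, 0.021 and 0.037). The 2 lower genes were RPL15A at -0.22 and RPL29 at -0.17 (adjusted p = 0.040 and 0.022). Leaving out any 1 of the 6 arrays left 3 or 4 calls in place of 8. RPL17A and RPL33B were called in all 6 of these fits and RPL22B in 5, the exception being the fit without EPY338 replicate 3. The methods' t-test, however, called only RPL29, RPL8A and RPL17A, without RPL22B and RPL33B. A single fit of all 18 arrays called only RPL22B and RPL33B, without RPL17A. When each array was centred on its median, 8 genes were again called but with 4 higher and 4 lower, RPL32 and RPP1B joining the lower genes and RPL2B and RPL20A no longer passing.

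With the indirect method no gene of the 78 was called, against 4.48% of all genes higher and 4.6% lower. Of the 78 genes 4 had an unadjusted p under 0.05, against 1455 of all 5739 genes. The methods' t-test with the same adjustment called none either. RPL22B again had the largest difference, with 11.27, 11.57 and 11.37 in EPY330, against 11.15, 11.17 and 10.88 in EPY338. These did not overlap, and the difference was 0.33 log2 units (adjusted p = 0.095). In the fit with the replicate block RPL22B was called with the same difference (adjusted p = 0.042) and was the only gene of the 78 to be called. RPL8A had 0.27 log2 units (adjusted p = 0.17), and without EPY338 replicate 1 it had 0.39 and was called (adjusted p = 0.046).

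With the ds-cDNA method 1 gene was called, RPP2B, 1 of the copies for the acidic stalk protein P2, and it was lower in EPY330. Among all genes 3.76% were higher and 2.56% were lower, against none higher and 1.28% lower among the 78. RPP2B had 12.54, 12.47 and 12.60 in EPY330, against 13.26, 13.04 and 13.14 in EPY338, without overlap. The level in EPY330 was 0.656-fold that in EPY338 (95% interval 0.581 to 0.74, adjusted p = 0.007), and RPP2B was called in each of the 6 fits that left out 1 array (adjusted p = 0.020 to 0.036). With the direct random method the same gene had 14.66, 14.63 and 14.55 in EPY330, against 14.79, 14.81 and 14.63 in EPY338, and with the indirect method 14.70, 14.66 and 14.74 in EPY330, against 14.64, 14.83 and 15.03 in EPY338. The strains overlapped with both of these methods, with differences of -0.13 log2 units each (adjusted p = 0.15 and 0.47).

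**Figure D4:**
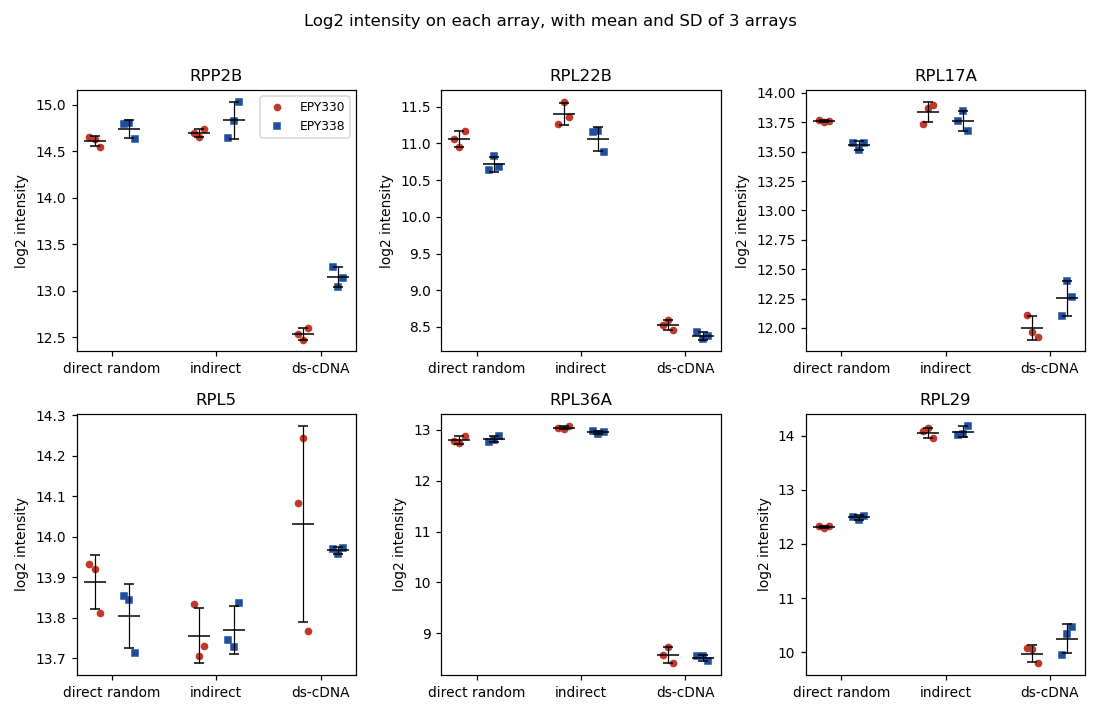
Log2 intensity of 6 genes on each of the 18 arrays by labeling method, with EPY330 (circles) left of EPY338 (squares) and the mean and SD of 3 arrays in black; each panel has its own scale. RPP2B separates the strains on the ds-cDNA arrays, at 12.47 to 12.60 in EPY330 and 13.04 to 13.26 in EPY338, and RPL36A falls to 8.41 to 8.74 on those arrays in both strains.

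Whether a strain difference depended on the method was tested as an interaction on all 18 arrays. No gene of the 78 was called in any of the 3 pairs of methods. For direct random against indirect no gene of the whole array was called either. None of the 78 had an unadjusted p under 0.05, against 325 of all 5739 genes. For direct random against ds-cDNA 5 of the 78 had an unadjusted p under 0.05, against 575 of all 5739 genes. After adjustment 0.314% of all genes were called higher and 0.261% lower. For indirect against ds-cDNA 6 of the 78 had an unadjusted p under 0.05, against 660 of all 5739 genes. After adjustment 0.366% of all genes were called higher and 0.331% lower. RPL17A was closest to a call, at 0.46 log2 units for direct random against ds-cDNA (adjusted p = 0.063). Its strain difference was 0.21 with direct random and -0.25 with ds-cDNA labeling, and only the first was called. Without ds-cDNA replicate 1 of EPY330, and likewise without that of EPY338, the interaction of RPL17A was called, so that the count became 1. The interaction of RPP2B was 0.48 log2 units for direct random against ds-cDNA and also for indirect against ds-cDNA (adjusted p = 0.10 each), and without EPY338 replicate 3 on the indirect arrays the second was called, a count of 1 in place of 0. A strain difference of RPP2B particular to ds-cDNA labeling was therefore not shown by the fit on all arrays.

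The sign of the strain difference was the same with all 3 methods in 32 of the 78 genes, 17 higher and 15 lower in EPY330. This was a smaller share than the study reported for the genes of the whole array from its own fold-changes. The share over all genes was not recomputed with these fits. In 70 of the 78 genes the fold-change itself stayed within 1.2-fold with every method, so most of these signs belong to small differences. RPL22B was among the 17, with 0.34, 0.33 and 0.15 log2 units by direct random, indirect and ds-cDNA labeling, and so was RPL8A, with 0.19, 0.27 and 0.20. In the unpaired fits both passed the threshold with direct random labeling and not with the other methods. The fit with the replicate block called RPL22B on the indirect arrays (adjusted p = 0.042). On the direct random arrays that fit no longer called RPL22B, while RPL8A stayed called. RPP1B, for the stalk protein P1, was lower with each, at -0.17, -0.20 and -0.21 (adjusted p = 0.052, 0.14 and 0.19), and passed the threshold with none. RPL37A served as a reference gene of the quantitative PCR and was chosen for array fold-changes near 1. Its fold-changes were 1.02, 1.07 and 0.908, and none was called, which is no independent evidence since these arrays chose it.

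The stalk genes were not alike. Between methods RPP2A had 3.23 log2 units and RPP2B 1.84 for direct random against ds-cDNA, with RPP1B at 2.73, RPP1A at 2.70 and RPP0 at 1.64. RPP0, the stalk base, showed strain differences of -0.04, 0.00 and 0.00 log2 units with direct random, indirect and ds-cDNA labeling. RPP1A had 0.09, 0.01 and -0.07, and RPP2A had -0.03, -0.14 and -0.21. None of these was called.

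The A and B copies of a gene were compared by their changes and not by their levels, since the probes differ and near-identical copies may take up each other's cDNA. Between strains the copies moved apart by a median of 0.07 log2 units with direct random, 0.062 with indirect and 0.14 with ds-cDNA labeling over the 30 pairs, and the largest distance was 0.35 with each method. With the direct random method 7 pairs had 1 called copy and no pair had both.

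The A minus B difference of RPL22 was 2.03, 2.04 and 1.90 in EPY330, against 2.34, 2.11 and 2.31 in EPY338 by direct random labeling. With the indirect method it was 1.90, 1.69 and 1.95 in EPY330, against 2.11, 2.03 and 2.44 in EPY338, and with the ds-cDNA method 1.31, 1.27 and 1.29 in EPY330, against 1.35, 1.43 and 1.61 in EPY338. EPY330 lay below EPY338 on every array of every method. RPL22, RPL33, RPL8 and RPL15 were picked because their copies differed most in strain change averaged over the methods. Their separation of the strains is therefore no independent evidence. RPL22A itself had strain differences of 0.08, -0.01 and -0.03 log2 units and was not called. RPL33 behaved alike with direct random labeling, at 1.18, 1.07 and 1.06 in EPY330, against 1.54, 1.39 and 1.41 in EPY338. With indirect labeling the strains overlapped, at 0.92, 0.96 and 1.07 in EPY330, against 1.05, 0.90 and 1.07 in EPY338. With ds-cDNA labeling RPL33 had 1.39, 1.22 and 1.11 in EPY330, against 1.55, 1.39 and 1.64 in EPY338. The strains met at 1.39 there, and the A minus B difference changed by -0.29 log2 units. The A minus B difference changed between strains by 0.18, 0.27 and 0.11 log2 units in RPL8 and by -0.21, -0.05 and -0.26 in RPL15, with direct random, indirect and ds-cDNA labeling in this order.

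Between methods the copies moved apart further. For direct random against ds-cDNA 5 pairs differed by more than 1 log2 unit and 13 by less than 0.25, and for indirect against ds-cDNA 3 pairs by more than 1 and 10 by less than 0.25. For direct random against indirect no pair reached 1 and 20 stayed under 0.25. RPL36A rose by 4.26 log2 units and RPL36B by 1.84 with direct random over ds-cDNA labeling. Its A minus B difference was -1.51, -1.58 and -1.43 on the direct random arrays of EPY330, and -4.03, -3.84 and -3.86 on its ds-cDNA arrays, without overlap. RPL17A rose by 1.53 and RPL17B by 0.15 in the same comparison, RPL31A by 3.08 and RPL31B by 1.94, and RPL23B by 2.75 and RPL23A by 1.57. By contrast RPL1A and RPL1B rose by 0.75 and 0.77, and RPL19A and RPL19B by 2.01 and 2.04.

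**Figure D5:**
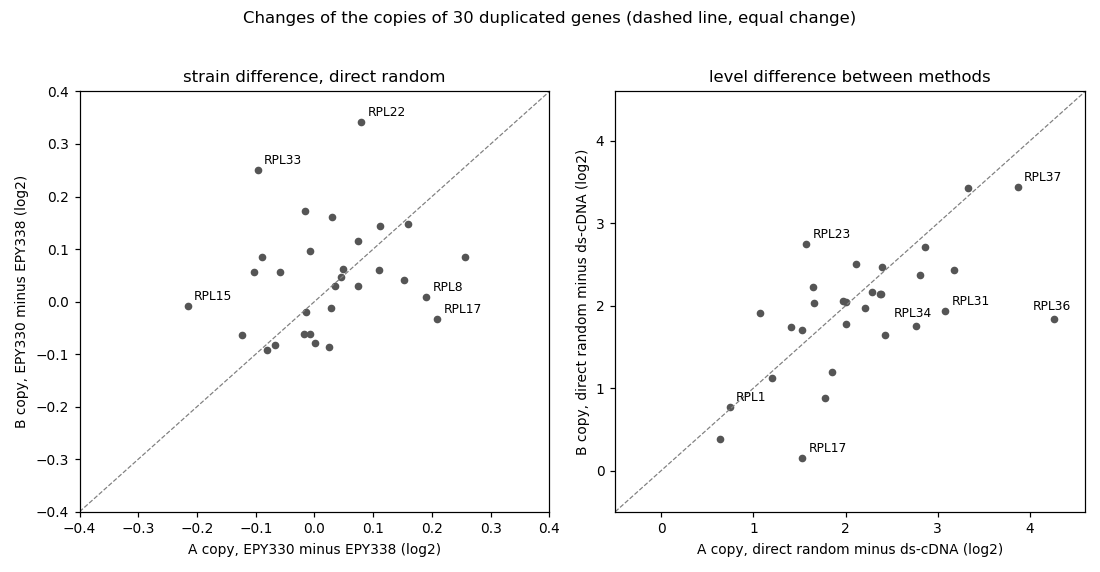
Change of the B copy against change of the A copy for the 30 duplicated genes with both copies measured, on the log2 scale, for the strain difference with direct random labeling (left) and the level difference of direct random minus ds-cDNA labeling (right); the dashed line marks equal change. RPL36 lies farthest from the line on the right, with 4.26 for its A copy and 1.84 for its B copy, and RPL33 and RPL22 lie farthest above it on the left.

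Neighbouring genes were looked up in the yeast annotation. RPL13A lies next to RPP1A and RPL24A next to RPL30, while no other measured pair was adjacent. RPL13A and RPP1A had strain differences of -0.01 and 0.09 log2 units with direct random labeling, and RPL24A and RPL30 had 0.05 and 0.01. RPL7A and RPL7B each overlap a small nucleolar RNA gene in the annotation, and whether any probe lies in the overlap was not checked. RPL7A and RPL7B had level differences of 1.65 and 2.04 log2 units for direct random against ds-cDNA.

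Other genes of the pathway were taken from a list of 31 regulators, chaperones, 60S maturation factors and elongation factors, of which 29 had values. Between strains, with direct random labeling, 6 (20.7%) were higher and 1 (3.45%) lower in EPY330, against 11% and 11.4% of all genes. With indirect labeling 6 (20.7%) were higher and 1 (3.45%) lower, against 4.48% and 4.6% of all genes. With ds-cDNA labeling 3 (10.3%) were higher and 1 (3.45%) lower, against 3.76% and 2.56% of all genes. CRF1, a corepressor of ribosomal protein genes under TOR control, was the lower one with each method, at -0.80, -0.98 and -0.42 log2 units (adjusted p = 2.2e-05, 0.00057 and 0.039). MRT4, which holds the place of RPP0 on the immature subunit, was higher with each, at 0.41, 0.58 and 0.41 log2 units (adjusted p = 0.006, 0.017 and 0.047).

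TOD6, a repressor of ribosome biogenesis genes, and SYO1, which brings the RPL5 and RPL11 proteins into the nucleus, were higher with direct random (0.33 and 0.31 log2 units) and with indirect labeling (0.41 and 0.33). The export factor ARX1 had 0.55 log2 units and the export adaptor NMD3 0.35 with indirect labeling, both called. IFH1, the coactivator of ribosomal protein genes, was called with ds-cDNA labeling, at 0.37 log2 units, and had 0.07 and 0.31 with direct random and indirect labeling. ABF1, a general regulatory factor that binds the promoters of some ribosomal protein genes, was higher with direct random and with ds-cDNA labeling, at 0.40 and 0.52 log2 units (adjusted p = 0.0016 and 0.017), and had 0.26 with indirect labeling (adjusted p = 0.25). The activators RAP1, FHL1 and SFP1 were called with none of the methods. Between methods the list did not show the shift of the ribosomal protein genes. For direct random against ds-cDNA 5 (17.2%) were higher and 19 (65.5%) lower, against 37.4% and 49.7% of all genes. The median was -0.29 log2 units, against -0.12 for all genes.

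The small-subunit genes of the cytosolic ribosome were closest to the large-subunit genes. Of 54 measured RPS genes 52 were higher and 1 lower with direct random than with ds-cDNA labeling, with a median of 1.85 log2 units, and 52 were higher and 2 lower with indirect than with ds-cDNA labeling, with a median of 1.95. In the strain comparison 8 of the RPS genes (14.8%) were higher and 1 (1.85%) was lower with direct random labeling, against 11% and 11.4% of all genes. None was called with indirect labeling, against 4.48% and 4.6% of all genes, and 1 (1.85%) was lower with ds-cDNA labeling, against 2.56% of all genes. Of 34 mitochondrial large-subunit genes, 25 were higher and 7 lower with direct random than with ds-cDNA labeling, with a median of 1.34. The high level of the 78 genes relative to ds-cDNA labeling was thus shared with other ribosomal protein genes and was not tested as a property of the large subunit.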

How the data were processed

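Total RNA of both strains was labeled by each of 3 methods in triplicate, and single-colour NimbleGen array values were deposited for 18 arrays. Per the labels and the study's methods, the authors used ArrayStar for quantile normalization and RMA summarization, which leaves 1 log2 intensity for each gene. Which arrays were normalized together, and on which slide each array lay, is not given in the sources used here, so slide could not enter a fit. The genome build of the probes is likewise not given, and no coordinates or sequences are printed. Quantile normalization gives the arrays a shared distribution, so a level is relative to the other genes of an array. The deposited log2 values were used as they are, and entries without a value were left out.

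Symbols came from the yeast annotation R64 by systematic name, which matched 5733 of 5739 genes. Groups were taken from the labels. Strains were compared within the 6 arrays of a method, unpaired as in the study's methods, and methods and interactions on all 18 arrays, with limma 3.58.1 (lmFit, eBayes) in R 4.3.3. Benjamini-Hochberg adjustment covered all 5739 genes, and a gene was called at an adjusted p under 0.05. Intervals are the 95% confidence intervals of these fits. The limma step was tested on simulated data. Plots were made in Python 3.11.15 (matplotlib 3.10.9). The number of arrays, 3 in a group, limits the precision of every value.

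Arrays with the same replicate number in both strains were checked for shared deviations from the group means over all genes. The correlations were 0.12, 0.15 and 0.25 for indirect replicates 1, 2 and 3, 0.01, -0.10 and -0.04 for direct random and -0.08, 0.02 and -0.19 for ds-cDNA. Each indirect value was over 0.1, which meets the criterion for pairing by number. However, indirect EPY330 replicate 2 with EPY338 replicate 1 had 0.20, and the other indirect correlations of unlike numbers were negative. The labels do not say what the replicate number shares, so a pairing is not established. The counts, intervals and plots come from the unpaired fits, and for the indirect arrays the value with the replicate block is given beside the unpaired one where it changed a call.

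Genes are named by this rule: the 3 largest called strain differences of each method, genes called with all methods, the 3 highest and 3 lowest level differences of each pair of methods, the 4 pairs of copies that differ most in strain change and the 4 that differ most between methods, genes called in an interaction, RPL37A, the stalk genes and the shortest member. Other genes were named after their values were seen. The members, the lists and the rule were chosen with earlier results of these data known. The alternatives were the methods' t-test, 1 fit of all 18 arrays or of only the 12 arrays of both methods, a prior variance with an intensity trend, the replicate block, median centring, quantile normalization, a filter on the dimmest 25% of genes, other thresholds and leaving out each array.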

Additional observations from a re-analysis of the deposited data

Results flagged for a closer look

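Among the genes of the pathway list, the strain difference of CRF1 differed between methods. It was -0.98 log2 units with indirect and -0.42 with ds-cDNA labeling, and the interaction, at -0.56 log2 units, passed the threshold on all 18 arrays (limma, adjusted p = 0.035). In direct random against ds-cDNA labeling the interaction of CRF1 was -0.38 and was not called. The cause was not tested. Groups of 3 arrays are too small for a test of single outlying arrays, and none was run.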

How the results depend on the processing

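For the named genes, 2946 of 3069 values recomputed under the alternatives kept their side of the threshold, 107 lost the call and 15 gained it. In 1 a called difference changed sign. That 1 was RPL17B in direct random against ds-cDNA labeling, at -0.0689 log2 units with quantile normalization of all 18 arrays. Values called in neither fit were counted as kept even where their sign changed. The ds-cDNA strain difference of RPP0, for example, ran from -0.206 to 0.109 log2 units when 1 array was left out. The number of the 78 genes called between strains with direct random labeling, 8, became 3 with the methods' t-test, 2 with 1 fit of all 18 arrays, 13 with a trend in the prior variance, 4 with the replicate block and 0 at an adjusted p under 0.01, and it was 3 to 4 when 1 array was left out. With indirect labeling the count of 0 became 1 with 1 fit of all 18 arrays, 1 with the trend and 1 with the replicate block, each time RPL22B, and it was 0 to 1 when 1 array was left out. With ds-cDNA labeling the count of 1 became 6 with 1 fit of all 18 arrays and 2 with quantile normalization within the method, and it was 1 to 2 when 1 array was left out, with RPL43A joining RPP2B without EPY338 replicate 1. RPP2B was among the genes called under every alternative of this comparison. For levels, direct random against indirect gave 3 genes in place of 55 when a difference above 1 log2 unit was also asked for, and 48 to 53 when 1 array was left out. The range was 76 to 78 for direct random and 78 to 78 for indirect labeling, each against ds-cDNA. The interaction counts of 0 stayed at 0 to 0 for direct random against indirect and went to 0 to 1 in both comparisons with ds-cDNA. The leave-one-out fits had fewer arrays, and the cause of the changes in these counts was not tested for any setting. The replicate block changed no other count of called genes by more than 1.5 times.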
